A study of Mus musculus with 12 samples.

Results

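Basal epidermal cells of the leading edge (LE) of a healing skin wound were compared with basal cells of undamaged skin 7 days after wounding (D7). The comparison used the 4 arrays whose labels name them as LE or control basal cells at D7, 2 of each, out of 12 in the series. It ran across 17097 genes, each read from 1 probe set, that of highest mean on the 12 arrays among those annotated to that gene alone. All groups shared the CD1 background, an outbred strain, and the mice were adult, with no exact age or hour of collection given for the arrays. A punch wound of 3 mm was made in the tail skin. The LE was cut out with a punch of 4 mm around the wound, and control skin was taken far from it. Tissue of 5 mice was pooled for each sample, so a value is an average over animals. From each pool, after trypsin had freed the epidermis, 300 basal cells were sorted that carried α6-integrin and lacked CD34, a marker of hair follicle bulge cells. Their RNA was amplified over 25 cycles and hybridized to Mouse Genome 430 PM strip arrays. Values are log2 intensities as the authors normalized them. The other arrays were the proliferative hub at D7, a ring outside the LE cut with a 6 mm punch, and the same 3 regions 4 days after wounding (D4). The labels call the arrays of a region biological replicates, and whether they came from separate pools of mice is not given, so the spread between them may be technical. Every standard error (SE) and adjusted p below comes from limma with 2 arrays per group (n = 2) and treats them as independent.

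In re-epithelialization, keratinocytes at the wound margin loosen their attachment to the basement membrane, reorganize actin and microtubules and crawl under the clot as a sheet, while cells further back divide and feed the sheet. Wound keratinocytes are known for a set of stress keratins (K6, K16), for secreted proteases that cut fibrin and collagen, and for ligands of the EGF receptor. The LE is the part of the sheet nearest to the gap.

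The LE and control arrays of D7 were alike in scale. Their medians lay between 4.25 and 4.28, the LE arrays correlated with r = 0.993 and the control arrays with r = 0.992 across probe sets, which are not independent, and the median log2 difference over all genes was 0.02. The 6 arrays of D4 had medians of 5.401 to 5.469 and lowest values of 3.30 to 3.38, so the days are not on one scale, and each difference from control was taken within a day. Basal keratinocyte markers had mean log2 levels of 10.78 and 10.67 in the LE and 11.01 and 10.97 in control skin. Suprabasal markers were also far above the array medians, at 8.96 and 8.87 against 9.06 and 9.05, with 2 of 9 under the median on all 4 arrays. Infundibulum and isthmus markers averaged 7.59 and 7.64 against 8.28 and 8.0. So the pools did not show a profile of basal markers alone. Krt14, a basal keratin, was at 11.82 and 11.56 in the LE and at 11.69 and 11.69 in control skin. Itga6, the antigen of the sort, was at 10.51 and 10.29 against 10.26 and 10.11, and Cd34 lay under the array median in all 4 (3.52 and 3.26 against 3.28 and 3.08). Of 10 basal markers 8 were not called, among them Krt5, Trp63 and Col17a1. The exceptions were Krt15, a keratin of slow-cycling basal cells, and Dst, the hemidesmosomal plakin BPAG1. Krt15 was lower in the LE by 1.88 ± 0.39 (adjusted p = 0.0108), and Dst by 0.89 ± 0.11 (adjusted p = 0.000711). The fall of Krt15 was not called without LE replicate 1 (adjusted p = 0.0906) or without either control array.

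Markers of other cells were checked in the same arrays. None of 13 markers of macrophages and monocytes was called by limma (0 higher and 0 lower by unadjusted p at the same threshold), and 10 of them lay under the array median on all 4 arrays. Of 9 neutrophil markers 6 lay there too, and S100a8, which wound keratinocytes also express, was the 1 called higher. By unadjusted p at the same threshold 3 were higher and 1 lower. S100a9 was not called, with a difference of 2.31 to 3.01 over the alternative fits. The summed log2 level of all 9 markers was 40.8 to 41.0 in the LE and 33.3 to 34.6 in control skin. Among 12 endothelial markers 3 rose, Cdh5 (VE-cadherin, 2.03 ± 0.52, adjusted p = 0.027), Tie1 (1.18 ± 0.20, adjusted p = 0.00398) and Cldn5 (0.71 ± 0.14, adjusted p = 0.00771), and none fell. Their summed log2 level was 61.8 to 63.5 in the LE and 53.2 to 55.4 in control skin. The von Willebrand factor gene Vwf lay at 3.97 and 3.61 against 4.26 and 3.72. Cdh5 was called in none of the fits that left out 1 of the 4 arrays (highest adjusted p = 0.139), and Cldn5 was not called without LE replicate 1 (adjusted p = 0.0716). Of 12 fibroblast markers 2 fell, decorin (Dcn) and Sparc, and 0 rose (median -0.13). Neither was called in any fit that left out 1 of the 4 arrays (highest adjusted p = 0.0999 and 0.115). Of the 12, 7 were under the array median throughout, with Col1a2, Col3a1 and Pdgfra among them, and the sums were 52.7 to 54.6 against 58.6 to 59.0. No other list of the cell types had more than 2 called markers. In these sorted pools, fewer cells of a type and less RNA per cell cannot be told apart. What part other cells had in the results below was not tested.

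**Figure D1:**
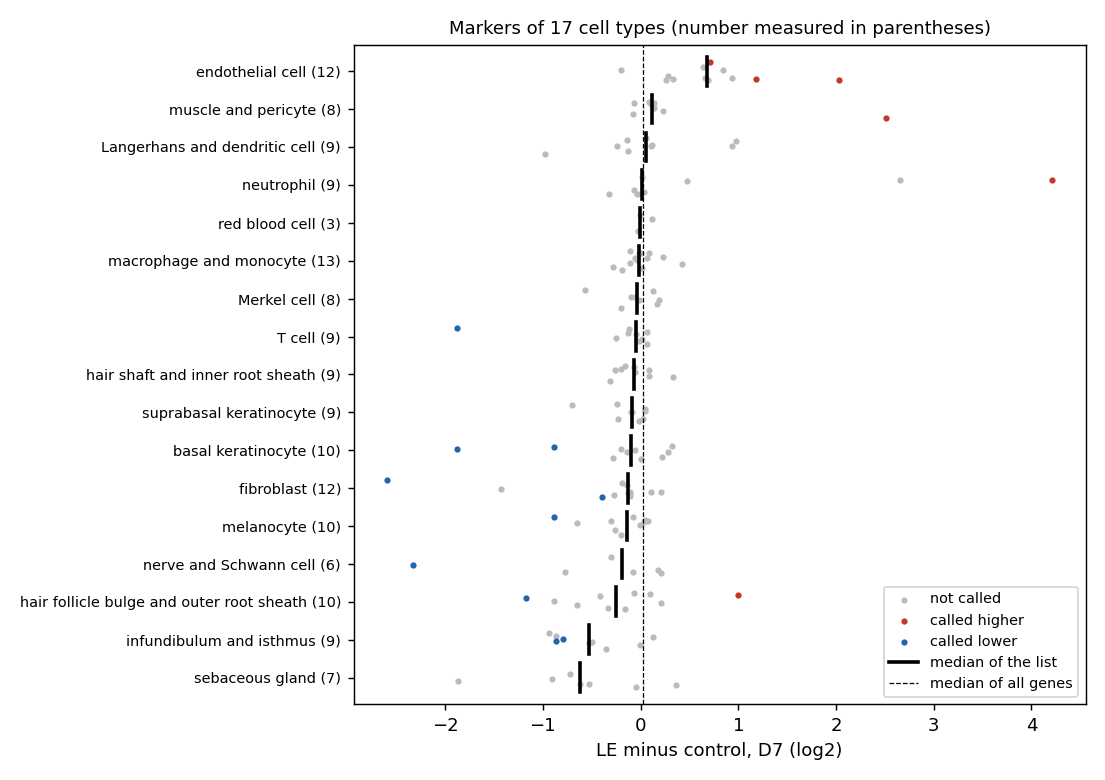
Log2 difference, LE minus control at D7, of the markers of 17 cell types (x axis), with each point a gene, colours for genes called higher or lower, a black bar for the median of a list and a dashed line for the median of all genes. Endothelial markers have the highest median, 0.675, and 8 of 10 basal keratinocyte markers are uncalled.

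limma called 1581 of 17097 genes higher in the LE (9.25%) and 918 lower (5.37%), at an adjusted p under 0.05. The median difference of the genes called was 0.75 upward and -0.80 downward on the log2 scale. At least 2-fold were 417 of the rises and 310 of the falls, and at least 8-fold were 38 and 8. So the largest changes were mostly rises. Both LE arrays lay above both control arrays for 5381 genes (31.5%) and below both for 4021 (23.5%), and every gene called was among them. Among the rises 133 started from control arrays under the array median, and 92 of the falls ended there in the LE. An intensity near the lower end of the scale bounds a fold poorly, and 2.44 was the lowest value on these arrays. The number of calls rested on few arrays: 1016 genes were called in all without LE replicate 1, 1551 without LE replicate 2, 1412 without control replicate 1 and 1346 without control replicate 2. By the fold rule of the study's methods, above 2-fold in each replicate, 313 genes were higher and 258 lower. The methods do not say how replicates were paired, and each LE array was set here against the control array of the same number.

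**Figure D2:**
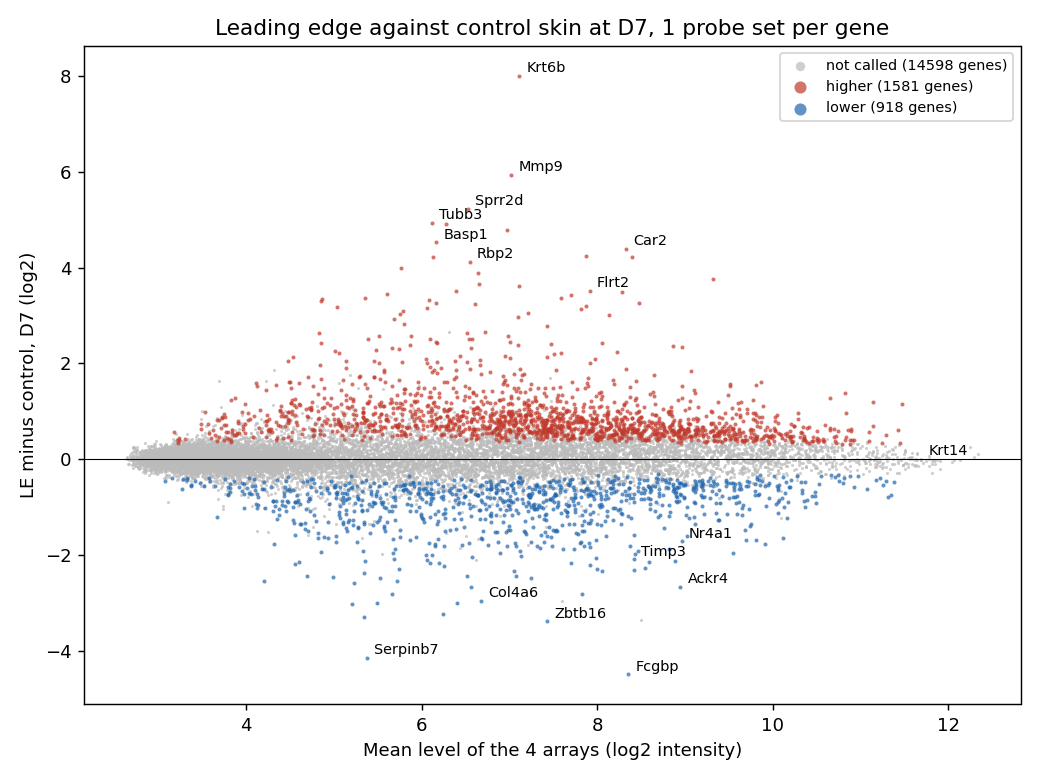
Log2 difference, LE minus control at D7 (y axis), against the mean log2 intensity of the 4 arrays (x axis), with each of 17097 genes as a point and the called genes in red (1581 higher) and blue (918 lower). Krt6b stands highest and Fcgbp lowest, at -4.49, while Krt14 lies at 0.00.

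The widest gap belonged to Krt6b, a stress keratin of the wound margin. It measured 11.37 and 10.85 in the LE against 3.04 and 3.17 in control skin, a log2 difference of 8.003 ± 0.58 (adjusted p = 5.24e-05). Its control values were under the array median, and whether they stood above background is not given. With both raised to the medians of their arrays the difference was still the widest of the genes called, at 6.83, an estimate of 114-fold without its error. Control skin at D4 had Krt6b above the medians of that day, as given below. Krt6b has a close paralog, Krt6a, and how far their probe sets share signal was not tested. Krt6a rose by 1.15 ± 0.12 and the partner keratin Krt16 by 1.18 ± 0.13, from control levels of 10.84 and 10.96 and of 10.47 and 10.64. Behind Krt6b stood Mmp9, the gelatinase that cuts collagen IV, at 10.38 and 9.60 against 4.44 and 3.67 (5.94 ± 0.93, adjusted p = 0.00276). Another probe set of Mmp9 rose by 4.19. Among the 15 largest were also genes better known from neurons. Tubb3, the class III β-tubulin of neurons, was at 8.65 and 8.51 against 3.46 and 3.84 (4.93 ± 0.43, adjusted p = 0.00014). Basp1, a membrane protein of growth cones, was at 8.55 and 8.31 against 4.06 and 3.75, a difference of 4.53 ± 0.17 (adjusted p = 1.39e-06). In both the LE and control arrays did not come near each other.

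Sh2d5, an adaptor protein, rose by 4.92 ± 0.56. Rbp2, a carrier of retinol, was at 8.46 and 8.75 against 4.55 and 4.43, and its change of 4.11 ± 0.16 (adjusted p = 1.64e-06) was as tight as that of Basp1. Has3, a hyaluronan synthase, rose by 3.99 ± 0.29. Car2, a carbonic anhydrase, stood at 10.56 and 10.49 against 6.46 and 5.80 (4.39 ± 0.36). The cytokine Il24 was at 10.09 and 9.90 against 5.11 and 6.38 (4.25 ± 0.50), and the alarmin S100a8 at 8.35 and 8.13 against 4.55 and 3.51 (4.21 ± 0.77). The control arrays of both spread by over 1 log2 unit, and S100a8 was not called without LE replicate 1 (adjusted p = 0.0523) or without control replicate 2. Smim3, 2610528A11Rik, the connexin gene Gjb2 and 2 small proline-rich genes completed the 15 largest.

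Fcgbp, a mucin-like secreted protein, went from 10.61 and 10.58 in control skin to 5.81 and 6.40 in the LE, a 22.5-fold loss (-4.49 ± 0.30, adjusted p = 4.1e-05). Both LE arrays stayed above the array median while lying far below both control arrays. The serpin Serpinb7 dropped to 3.57 and 3.02 from 7.65 and 7.25 (-4.15 ± 0.60, adjusted p = 0.00179). The transcription factor Zbtb16 (PLZF), a glucocorticoid-responsive gene, was at 5.75 and 5.71 against 9.07 and 9.17 (-3.39 ± 0.21, adjusted p = 3.97e-05). Gpha2, a glycoprotein hormone subunit, lay at 3.22 and 4.16 against 7.07 and 6.91, and Depp1, a FOXO target, at 4.90 and 4.36 against 7.17 and 8.55. Also among the 15 were the carnitine synthesis enzyme Bbox1, the proteoglycan Spock2, the cytochrome P450 Cyp4b1, the ubiquitin ligase Trim2, the protease Pappa and the chemokine scavenger Ackr4. Ackr4 fell from 10.25 and 10.31 to 7.48 and 7.75 (-2.66 ± 0.32). Matrix genes made up the remainder, namely Efemp1, Col4a6, Fras1 and Dcn. Fras1, like Dcn, was called in none of the fits that left out 1 of the 4 arrays (highest adjusted p = 0.133).

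**Figure D3:**
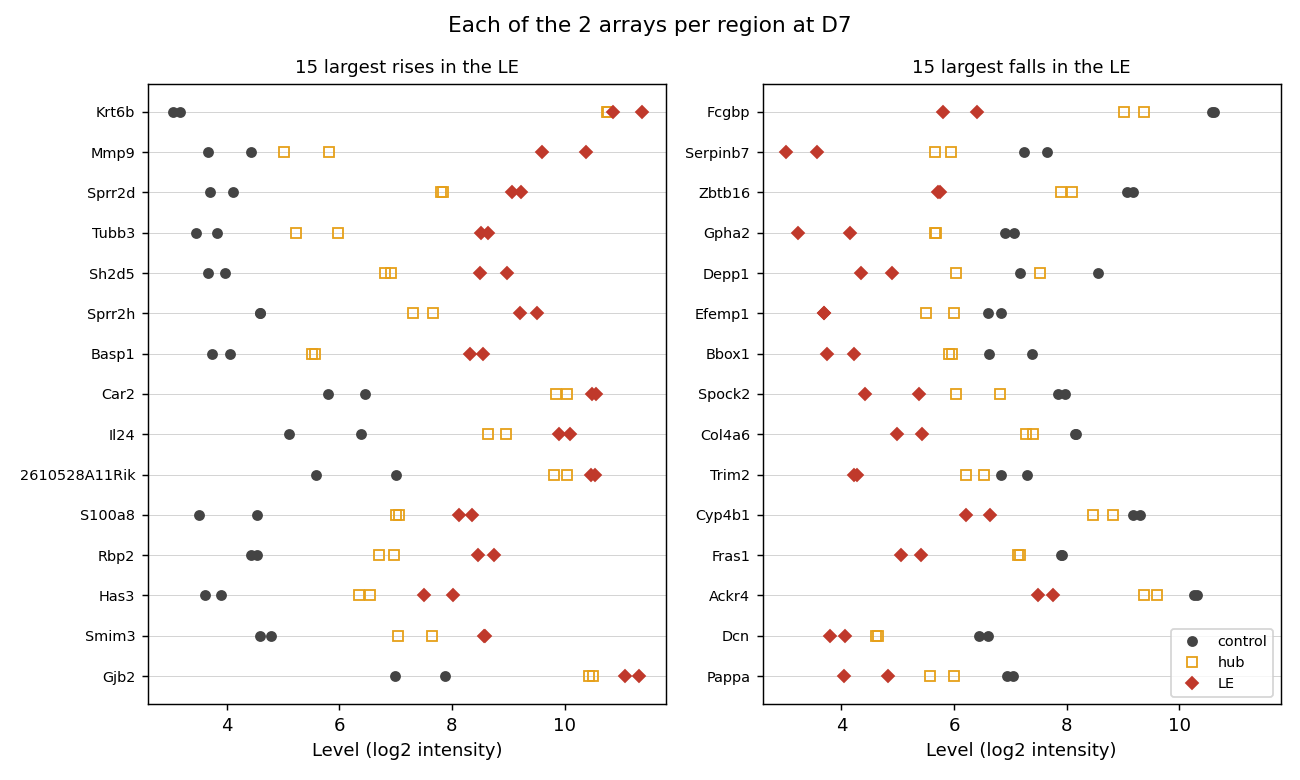
Log2 intensity (x axis) of each array of the LE (red diamonds), the proliferative hub (open orange squares) and control skin (dark circles) at D7 for the 15 largest rises and the 15 largest falls (y axis). In all 30 genes the LE arrays stand clear of the control arrays, as the choice of genes requires, and for Fcgbp the hub arrays, at 9.02 and 9.38, lie nearer to control skin.

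Stress keratins and proteins of the cornified envelope, which cross-link under the membrane of a dying keratinocyte, rose in 9 of 20 measured members and fell in 0, with a median of 0.72 against 0.02 for all genes. Sprr2d was at 9.06 and 9.23 against 4.12 and 3.70 (5.23 ± 0.16, adjusted p = 4.66e-07), Sprr2h at 9.22 and 9.51 against 4.59 and 4.59 (4.78 ± 0.32, adjusted p = 4.27e-05), and Sprr1b at 9.99 and 10.07 against 6.03 and 7.06 (3.48 ± 0.30, adjusted p = 0.00014). Tgm1, the transglutaminase that does the cross-linking, rose by 2.45 ± 0.27. The Sprr2 genes are near-identical in part, and how far their probe sets share signal was not tested. Of other envelope genes Ivl (0.34), Lce3a (0.08) and Lce3b (0.15) were uncalled. In the list of suprabasal and barrier genes 6 of 30 rose (20%) and 0 fell, beside 9.25% and 5.37% of all genes. The rises were led by the protease Klk10 (9.47 and 9.29 against 6.58 and 5.92, 3.13 ± 0.35) and the ceramide synthase Cers3 (1.56 ± 0.24). Krt1 (-0.01) and Krt10 (-0.10), the keratins of the first suprabasal layer, were uncalled. The 6 rises were 3 without LE replicate 1.

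Promoters of 4 genes are shown because they are the 4 genes with the largest rises whose RefSeq window holds the AP-1 motif TGANTCA, and 3 of them encode small proline-rich proteins. Each window runs from 250 bases before to 50 bases after the annotated start, is written 5′ to 3′ on the gene's strand in GRCm38.p6, and has the AP-1 motif in capitals. Cald1, an actin-binding protein, has 2 windows, and the one that holds the motif is given.
Sprr2d (chr3:92338890-92339189, + strand): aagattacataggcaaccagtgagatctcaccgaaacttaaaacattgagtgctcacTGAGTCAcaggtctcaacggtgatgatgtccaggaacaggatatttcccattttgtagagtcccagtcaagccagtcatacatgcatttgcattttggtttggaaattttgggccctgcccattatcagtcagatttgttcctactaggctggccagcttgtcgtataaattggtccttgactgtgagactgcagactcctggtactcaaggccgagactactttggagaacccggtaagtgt
Sprr2h (chr3:92385435-92385734, + strand): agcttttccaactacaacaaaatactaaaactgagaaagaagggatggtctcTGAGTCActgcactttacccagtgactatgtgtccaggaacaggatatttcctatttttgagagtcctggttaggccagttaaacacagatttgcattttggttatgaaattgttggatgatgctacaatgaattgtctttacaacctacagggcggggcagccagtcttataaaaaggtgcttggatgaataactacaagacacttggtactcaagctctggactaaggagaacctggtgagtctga
Cald1 (chr6:34709194-34709493, + strand): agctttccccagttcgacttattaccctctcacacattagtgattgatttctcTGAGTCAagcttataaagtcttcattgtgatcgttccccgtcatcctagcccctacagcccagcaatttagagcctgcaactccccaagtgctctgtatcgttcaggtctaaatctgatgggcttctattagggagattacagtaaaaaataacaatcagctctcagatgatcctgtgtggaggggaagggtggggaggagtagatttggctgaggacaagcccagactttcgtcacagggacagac
Sprr1b (chr3:92438730-92439029, - strand): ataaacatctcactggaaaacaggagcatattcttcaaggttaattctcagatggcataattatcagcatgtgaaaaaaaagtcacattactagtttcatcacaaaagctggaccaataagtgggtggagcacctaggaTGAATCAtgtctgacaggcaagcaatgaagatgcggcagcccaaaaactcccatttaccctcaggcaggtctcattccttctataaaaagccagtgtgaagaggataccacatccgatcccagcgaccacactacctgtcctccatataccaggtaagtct

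Counted from the start base, the match began at position -193 in Sprr2d, -198 in Sprr2h, -197 in Cald1 and -111 in Sprr1b. Among the windows of the envelope list the motif was in 8 of 17 (47.1%), those of Ivl, Sprr1a, Sprr1b, Sprr2d, Sprr2f, Sprr2h, Sprr2i and Sprr2k. Most of these are copies of a gene cluster and are not independent. Among them Ivl, Sprr1a, Sprr2f and Sprr2i were not called. Over all called genes, 5.55% of 1550 windows of genes called higher, 7.18% of 1059 windows of genes called lower and 6.46% of 16953 windows of all tested genes held it on either strand. Motifs were searched on both strands, and matches that overlap each other were not set apart. The CRE, TGACGTCA, was in 3.35%, 3.02% and 2.5%, and the E box CACGTG in 12.3%, 11% and 8.72%. The TEAD motif GGAATG was in 10.3%, 15.2% and 13.2%, the NF-kB motif GGGANTTCC in 2.39%, 1.98% and 1.99%, and the TATA box TATAAA in 8.13%, 8.88% and 9.99%. The CArG box of serum response factor was in 1.29%, 2.27% and 1.42%, and in 4 of 46 windows of the actin list (8.7%). A match of letters is not a binding site. Windows were found for 1299 of the 1581 genes called higher and 748 of the 918 called lower.

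Transcripts of AP-1 and other immediate early factors were lower in 10 of 20 measured members (50%) and higher in 1 (5%), Ier5. The median was -0.47, and over all genes 5.37% were called lower and 9.25% higher. Of the 13 members of the Fos, Jun, Atf, Maf, Batf and Jdp families 6 were lower and 7 were not called. Nr4a1, an orphan nuclear receptor, was at 8.01 and 8.19 against 9.82 and 9.82 (-1.72 ± 0.13, adjusted p = 6.45e-05). Jund lay at 9.34 and 9.53 against 10.58 and 10.23 (-0.97 ± 0.16), Atf3 at 10.90 and 10.92 against 11.73 and 11.70 (-0.80 ± 0.09), and Fosl1 at 9.51 and 9.58 against 10.36 and 10.38 (-0.82 ± 0.12). Jun, Fosb and Myc fell by 0.78, 0.75 and 0.71. In each of these 7 genes both LE arrays were below both control arrays. Fos was at 11.48 and 11.38 against 11.57 and 11.53 and was not called. Another, dimmer probe set of Jund ran the other way without a call (0.26), and Ier5 was called in none of the fits that left out 1 of the 4 arrays (highest adjusted p = 0.13).

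Among 18 feedback inhibitors of MAP kinase signalling 7 fell (38.9%), 0 rose and 11 were not called (median -0.30). Over all genes 5.37% were called lower and 9.25% higher. Spry1 was at 4.83 and 5.87 against 7.06 and 7.26 (-1.82 ± 0.32), and Errfi1 (MIG6), which blocks the EGF receptor kinase, at 9.01 and 8.90 against 10.59 and 10.71 (-1.70 ± 0.17, adjusted p = 0.000316). Lrig3 and Spred2 fell by 0.98 and 0.90. Dusp4 (0.18) and Dusp7 (0.13) were uncalled, as were Dusp6 (0.00) and Spry2 (-0.09), usual readouts of ERK activity. Of 12 EGF family members 4 rose (33.3%) and 1 fell (8.33%). The ligand Ereg was at 6.58 and 6.67 against 3.79 and 3.11 (3.18 ± 0.24, adjusted p = 6.58e-05) and Tgfa at 8.84 and 8.15 against 6.33 and 6.39 (2.14 ± 0.31). Egfr, their receptor, was lower at 9.45 and 9.38 against 10.01 and 9.96 (-0.56 ± 0.13, adjusted p = 0.0164), a call that was absent from every fit without 1 of the 4 arrays (highest adjusted p = 0.0853). The 4 rises were 2 without LE replicate 1 or either control array.

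The matrix divided. Of 23 measured genes of the basement membrane and wound matrix 5 rose (21.7%) and 9 fell (39.1%), beside 9.25% and 5.37% of all genes. Their median was -0.15. Collagen IV split by chain. Col4a2 was at 6.62 and 6.10 against 4.79 and 4.59 (1.67 ± 0.24, adjusted p = 0.00181), and Col4a1, its partner in the common form, at 8.36 and 7.70 against 7.07 and 6.90 (1.04 ± 0.29, adjusted p = 0.0377). Col4a6 was at 5.43 and 4.98 against 8.16 and 8.15 (-2.95 ± 0.38, adjusted p = 0.000951) and Col4a5, with which it assembles in skin, at 5.15 and 5.11 against 7.42 and 7.33 (-2.24 ± 0.42, adjusted p = 0.0063). The LE arrays were above both control arrays for the first pair and below them for the second. Other probe sets of Col4a6 (-2.87) and Col4a5 (-0.86) fell as well. Fibronectin (Fn1) rose by 1.19 ± 0.18 from dim control levels of 4.10 and 4.22. Frem2, of the Fraser complex that anchors skin, fell by 1.62 ± 0.26, and periostin (Postn) by 1.18 ± 0.13. Col4a1 was not called after quantile normalization, nor without LE replicate 1 (adjusted p = 0.255) or either control array. The 5 rises were 2 without LE replicate 1 or control replicate 1 and 3 without control replicate 2. limma called none of 14 integrin subunits (2 higher and 0 lower by unadjusted p at the same threshold).

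Proteases and their inhibitors divided too. In the list of metalloproteinases, ADAMs and TIMPs 9 of 26 rose (34.6%) and 3 fell (11.5%), beside 9.25% and 5.37% of all genes. Beside Mmp9, the collagenase Mmp13 was at 8.65 and 6.93 against 4.51 and 4.56 (3.26 ± 0.89, adjusted p = 0.0368) and the stromelysin Mmp10 at 7.88 and 6.66 against 3.92 and 4.56 (3.03 ± 0.80, adjusted p = 0.032). LE replicate 1 was the higher one in both. Without it neither was called (adjusted p = 0.243 and 0.208), nor without either control array, and Mmp10 was not called without LE replicate 2 either. Adam12 rose by 1.59 ± 0.18. The inhibitors went both ways. Timp1 rose to 7.50 and 5.76 from 3.54 and 4.73 (2.50 ± 0.51, adjusted p = 0.0101). It was not called without LE replicate 1 or control replicate 1 (highest adjusted p = 0.0766). Timp3 went from 9.37 and 9.57 to 7.10 and 7.64 (-2.10 ± 0.29, adjusted p = 0.00149), with 3 other probe sets between -2.38 and -2.19. Mmp2, a gelatinase like Mmp9, fell from 8.55 and 8.62 to 6.87 and 7.29 (-1.51 ± 0.13, adjusted p = 0.00014). The count of rises was 4 without LE replicate 1 and 4 without control replicate 1. On the cell surface Plaur, the urokinase receptor, rose by 1.35 ± 0.23, whereas Serpinb2, an inhibitor of urokinase, was at 6.83 and 6.94 against 9.34 and 9.10 (-2.33 ± 0.31, adjusted p = 0.00119).

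Of 44 cytoskeletal genes, mostly of actin and myosin, 24 were higher in the LE (54.5%), 0 were lower and 20 were not called, with a median of 0.46. The list also holds the intermediate filament genes Krt8 (-0.57), Krt18 (0.19) and Vim (1.68) and the hyaluronan receptor Cd44 (0.10), none of them called. Pdpn, podoplanin, which links the membrane to actin through ezrin, was at 9.68 and 8.86 against 5.89 and 5.92 (3.37 ± 0.23, adjusted p = 4.16e-05). Cald1 was at 8.64 and 8.31 against 4.95 and 4.70 (3.65 ± 0.19), and Acta2, smooth muscle actin, at 7.89 and 7.76 against 5.47 and 5.15 (2.51 ± 0.32, adjusted p = 0.000902). The abundant Actb (0.10) and Actg1 (0.04) were uncalled. Leaving out 1 of the 4 arrays gave 15 to 17 rises. Another, dim probe set of Acta2 showed no rise (-0.13), and 6 of the 8 muscle and pericyte markers, to which Acta2 belongs, lay under the array median. The tropomyosins were split between probe sets: that of Tpm1 used here rose by 0.81 and another fell by 1.41. Among 11 tubulins 5 rose and 0 fell. Tubb6 was at 11.31 and 11.26 against 10.06 and 9.98 (1.27 ± 0.11, adjusted p = 0.00014) and Tubb2a rose by 1.03 ± 0.16, and the 5 rises were 3 without LE replicate 1 or control replicate 2. Flrt2, an adhesion and guidance protein that binds Unc5 receptors, was at 9.74 and 9.61 against 6.05 and 6.27 (3.52 ± 0.24, adjusted p = 4.27e-05), and 2 other probe sets of it rose by 3.56 and 3.70. Its receptor Unc5b was at 6.88 and 6.69 against 8.34 and 8.25 (-1.51 ± 0.19, adjusted p = 0.000854). Over 43 guidance genes 4 rose and 4 fell, 9.3% in each direction, near the 9.25% of all genes called higher and above the 5.37% called lower. The falls were 2 without LE replicate 1.

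**Figure D4:**
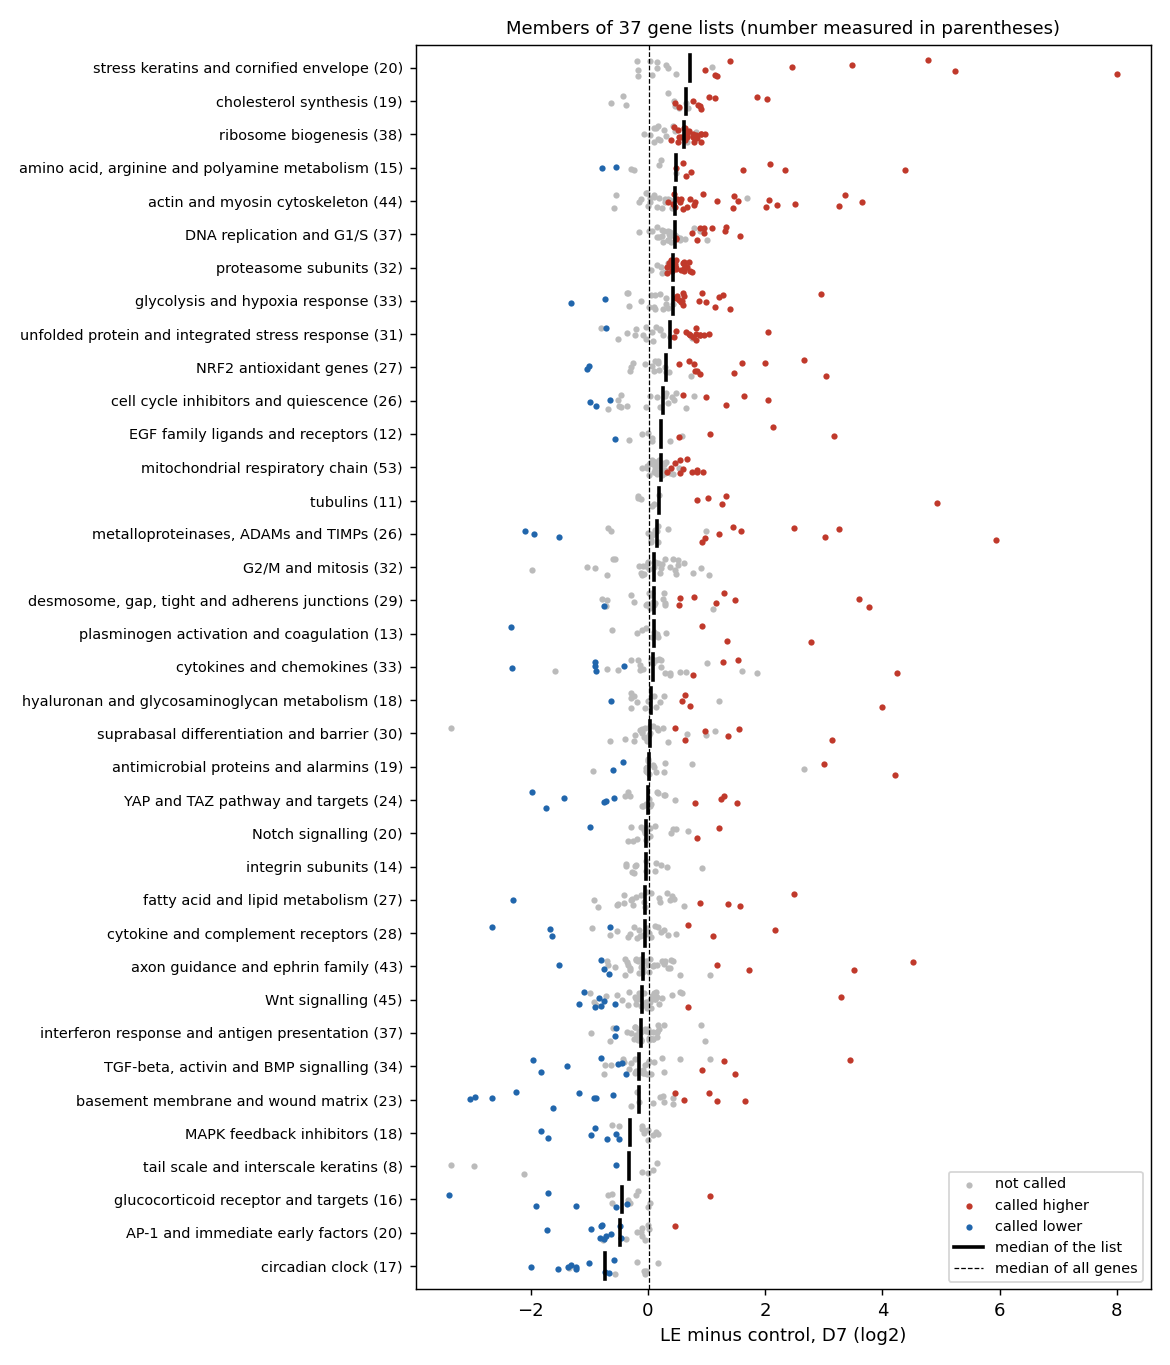
Log2 difference, LE minus control at D7, of the members of 37 gene lists (x axis), ordered by their medians (black bars), with each point a gene, colours for genes called higher or lower and a dashed line for the median of all genes. The clock genes have the lowest median, -0.732, and the stress keratins and envelope genes the highest, 0.723.

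Clock genes had the lowest median of the 37 lists. Of 17 measured, 10 fell, 0 rose and the median was -0.73. The list holds both arms of the loop, activators that bind E boxes and the repressors they switch on. The activator Arntl (BMAL1) was at 5.662 and 4.582 against 7.234 and 7.002 (-1.996 ± 0.497, adjusted p = 0.0252). Among the repressors Cry2 was at 6.148 and 6.677 against 8.002 and 7.888 (-1.53 ± 0.25) and Per1 at 6.54 and 6.75 against 7.89 and 7.84 (-1.22 ± 0.15, adjusted p = 0.000835). The nuclear receptor Rora was at 9.21 and 8.94 against 10.39 and 10.47 (-1.35 ± 0.16, adjusted p = 0.000722), Nr1d2 fell by 1.00 ± 0.13 and the output factor Tef was at 6.44 and 6.62 against 7.82 and 7.85 (-1.30 ± 0.19). Both LE arrays were below both control arrays in 12 of the 17 genes, as in 23.5% of all genes. Arntl was not called without LE replicate 2 (adjusted p = 0.163) or without either control array, and leaving out 1 of the 4 arrays gave 7 to 8 falls.
The E box CACGTG was in 6 of 20 windows of clock genes (30%), against 8.72% of all windows. The clock list holds genes switched on through E boxes, so its share is no independent evidence. In the ribosome biogenesis list, where 24 of 38 genes rose and 0 fell, the E box was in 7 of 36 windows (19.4%). A link between the motif and the direction of change was not tested. The window of Tef is shown, as the called clock gene with the largest change that holds the motif, with the E box in capitals at position -127 from the start.
Tef (chr15:81802423-81802722, + strand): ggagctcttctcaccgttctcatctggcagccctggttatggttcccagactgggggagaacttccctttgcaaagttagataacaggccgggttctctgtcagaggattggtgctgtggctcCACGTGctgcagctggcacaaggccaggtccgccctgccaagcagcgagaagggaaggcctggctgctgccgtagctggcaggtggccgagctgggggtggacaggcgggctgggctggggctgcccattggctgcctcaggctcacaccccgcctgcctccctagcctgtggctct

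Targets of the glucocorticoid receptor overlap with the clock list in Per1. Among 16 genes 6 fell and 1 rose (median -0.45), with Zbtb16 first and Klf9 next at 7.42 and 7.60 against 9.54 and 9.31 (-1.92 ± 0.17, adjusted p = 0.000152). The receptor Nr3c1 (-0.61) and the targets Fkbp5 (-0.68) and Tsc22d3 (-0.61) had smaller differences than Zbtb16 and Klf9 and were uncalled.

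Of 38 ribosome biogenesis factors 24 rose and 0 fell, with a median of 0.62, and in 34 both LE arrays lay above both control arrays, as in 31.5% of all genes. Nhp2, of the H/ACA snoRNPs, was at 10.13 and 10.04 against 9.24 and 9.10 (0.91 ± 0.10, adjusted p = 0.000434), Heatr1, of the small subunit processome, at 6.65 and 6.84 against 5.88 and 5.79 (0.91 ± 0.14), and Rrp12 at 6.40 and 6.72 against 5.52 and 5.65 (0.97 ± 0.16). The abundant nucleolar proteins Ncl (0.11) and Npm1 (0.11) were uncalled. Of 32 proteasome genes 24 rose and 0 fell (median 0.44), and all 32 differences were above 0. Psmd1 was at 10.67 and 10.52 against 9.93 and 9.87 (0.70 ± 0.10), and Psme3 at 10.19 and 10.20 against 9.52 and 9.51 (0.68 ± 0.09, adjusted p = 0.00143). Leaving out 1 of the 4 arrays gave 8 to 13 ribosome calls and 7 to 13 proteasome calls, whichever of the 4 it was, with the fewest lacking LE replicate 1. Quantile normalization of the 12 arrays gave 20 and 18.

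In DNA replication, 11 of 37 genes rose and 0 fell (median 0.46). The hub stood above control skin as well, with a median of 0.32, and 1 of the 37 was called above the hub. The study saw no uptake of BrdU, its label of proliferation, in LE cells at D7. To leave out proliferating cells, it later sorted LE cells of D4 for α5-integrin, a step these arrays lack. What part such cells had in the rises was not tested. Rrm2, the small subunit of ribonucleotide reductase, was at 10.30 and 10.30 against 8.83 and 8.63 (1.57 ± 0.14, adjusted p = 0.000188), with another probe set at 1.52. Mcm10, a replication initiation factor, was at 6.91 and 6.40 against 5.47 and 5.18 (1.33 ± 0.20) and Mcm3, of the helicase itself, at 9.17 and 8.98 against 8.27 and 7.70 (1.09 ± 0.21). limma called none of 32 genes of G2/M and mitosis (median 0.11, 3 higher and 3 lower by unadjusted p at the same threshold), and 2 were called higher without control replicate 1. The difference between the 2 lists was not tested. The replication calls numbered 3 without LE replicate 1, 7 without LE replicate 2, 5 without control replicate 2 and 10 without control replicate 1. Mcm3 was not called without LE replicate 1 (adjusted p = 0.07) or control replicate 2. The atypical repressors E2f7, at 5.41 and 5.59 against 3.61 and 3.30 (2.05 ± 0.23, adjusted p = 0.000566), and E2f8 (1.33 ± 0.22) rose as well, and the antiproliferative Btg2 fell from 10.87 and 10.86 to 9.87 and 9.87 (-0.99 ± 0.19).
The E2F motif TTTCCCGC was in 6 of 36 windows of the replication list (16.7%), against 1.55% of all windows. The list holds G1/S genes switched on through E2F factors, so its share is no independent evidence. Over all genes called higher the motif was in 1.74% of windows. Mcm3 is shown as the called gene of the list with the largest change that holds it, with the motif, read on the other strand, in capitals and beginning 19 bases past the start.
Mcm3 (chr1:20820263-20820562, - strand): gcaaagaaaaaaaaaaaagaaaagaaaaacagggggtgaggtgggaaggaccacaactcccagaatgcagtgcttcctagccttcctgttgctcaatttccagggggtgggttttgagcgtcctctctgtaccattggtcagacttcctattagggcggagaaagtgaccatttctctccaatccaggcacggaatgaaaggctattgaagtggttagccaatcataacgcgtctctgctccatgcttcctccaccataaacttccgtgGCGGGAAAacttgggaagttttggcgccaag

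Metabolic lists are read beside the 9.25% of all genes called higher and the 5.37% called lower. Of 19 genes of cholesterol synthesis 10 rose and 0 fell (median 0.65). Stard4, a sterol carrier, was at 7.35 and 7.03 against 5.39 and 4.93 (2.03 ± 0.23, adjusted p = 0.000598) and Sqle, squalene epoxidase, at 8.57 and 8.37 against 6.50 and 6.70 (1.87 ± 0.28). Without control replicate 1 there were 5. The sterol motif TCACNCCAC was in 1 of 17 windows of the list (5.88%), against 1.24% of all windows. That window was of Hmgcs1, which was not called and differed by -0.52 to -0.22 over the alternative fits. Among 33 genes of glycolysis and the hypoxia response 16 rose and 2 fell (median 0.44). The lactate exporter Slc16a3 (MCT4) was at 8.64 and 8.51 against 5.59 and 5.64 (2.96 ± 0.23, adjusted p = 6.58e-05), Vegfa rose by 1.27 ± 0.13 and lactate dehydrogenase Ldha by 0.60 ± 0.09, while the hypoxia gene Adm fell by 1.32 ± 0.23. The counts of rises without 1 of the 4 arrays ran from 9 to 14, with 9 lacking LE replicate 1 and 10 lacking control replicate 2. Ass1, which makes the precursor of arginine, was at 10.25 and 10.01 against 8.03 and 7.56 (2.33 ± 0.18, adjusted p = 6.58e-05), and Odc1, the first enzyme of polyamine synthesis, at 9.36 and 8.66 against 6.98 and 6.88 (2.08 ± 0.29). Of 15 genes of amino acid, arginine and polyamine metabolism, to which both belong, 8 rose and 2 fell (median 0.49). Of 27 genes of fatty acid and lipid metabolism 4 rose and 1 fell (median -0.05), and Fads3, a desaturase homolog, rose by 2.50 ± 0.23.

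Stress defences were mixed. Of 27 antioxidant genes under NRF2 11 rose (40.7%) and 2 fell (7.41%), beside 9.25% and 5.37% of all genes. Their median was 0.32. The aldo-keto reductase Akr1b8 was at 8.90 and 8.57 against 5.69 and 5.70 (3.04 ± 0.19, adjusted p = 3.97e-05), heme oxygenase Hmox1 at 8.21 and 7.88 against 5.25 and 5.52 (2.66 ± 0.20, adjusted p = 6.34e-05), and Gsta4 at 9.01 and 8.84 against 6.91 and 6.93 (2.00 ± 0.18). The transferases Gstm1 (-1.01 ± 0.11) and Gstm2 (-1.05 ± 0.18) fell, and Nqo1 (0.73), a usual marker of NRF2, was not called. In the unfolded protein and integrated stress responses 14 of 31 rose and 1 fell, with Trib3 at 6.34 and 6.63 against 4.50 and 4.37 (2.05 ± 0.20, adjusted p = 0.000222) and Asns up by 1.04 ± 0.14. The chaperone Hspa5 (0.38) and the factor Ddit3 (-0.03) were uncalled. Without LE replicate 1 there were 3 rises, without control replicate 2 there were 7 and without control replicate 1 there were 9.

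Immune signals moved both ways. Of 33 cytokines and chemokines 4 rose (12.1%) and 5 fell (15.2%), beside 9.25% and 5.37% of all genes. Of 28 cytokine and complement receptors 3 rose (10.7%) and 4 fell (14.3%). Beside Il24, Il18 was at 5.35 and 4.88 against 3.65 and 3.49 (1.54 ± 0.17) and Il1f9, an IL-36 cytokine, at 9.55 and 9.66 against 8.36 and 8.30 (1.28 ± 0.16). Ccl27a, which keratinocytes make to draw T cells to skin, was at 7.25 and 7.26 against 9.59 and 9.57 (-2.32 ± 0.30, adjusted p = 0.00103), with 3 other probe sets from -3.15 to -1.92. Both LE arrays lay below both control arrays. Among receptors Il4ra, the IL-4 and IL-13 receptor chain, was at 7.60 and 7.44 against 5.28 and 5.43 (2.16 ± 0.14, adjusted p = 3.97e-05) and Lifr at 6.62 and 6.70 against 8.37 and 8.20 (-1.63 ± 0.15, adjusted p = 0.000209). Of 37 interferon and antigen presentation genes 0 rose and 2 fell (1 higher and 5 lower by unadjusted p at the same threshold). Leaving out LE replicate 1, LE replicate 2 or either control array gave 2 falls among cytokines in place of 5.

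Morphogen families held calls in both directions. In TGF-β, activin and BMP signalling 4 of 34 rose (11.8%) and 7 fell (20.6%), beside 9.25% and 5.37% of all genes. Inhba, the activin A subunit, was at 8.05 and 6.60 against 3.60 and 4.17 (3.44 ± 0.59, adjusted p = 0.00423) and Tgfb1 at 7.69 and 7.98 against 6.34 and 6.36 (1.49 ± 0.16, adjusted p = 0.000466). Bmp2 was at 6.01 and 5.81 against 7.91 and 7.83 (-1.96 ± 0.38, adjusted p = 0.00782) and the co-receptor Tgfbr3 at 6.77 and 7.25 against 8.72 and 8.95 (-1.83 ± 0.24). Leaving out 1 of the 4 arrays gave 4 rises and 1 to 3 falls, 1 without LE replicate 2, where Bmp2 was not called (adjusted p = 0.0528), 2 without either control array and 3 without LE replicate 1. In Wnt signalling 2 of 45 rose (4.44%, under the share of all genes) and 7 fell (15.6%). Wnt5a, a ligand of the planar polarity branch, was at 6.85 and 6.16 against 3.14 and 3.27 (3.30 ± 0.26, adjusted p = 7.75e-05), with another probe set at 2.45. Its receptor gene Ror1 was at 3.79 and 3.78 against 5.01 and 4.90 (-1.18 ± 0.21, adjusted p = 0.00564). The 7 falls became 3 without LE replicate 2 or either control array and 1 without LE replicate 1. Among 24 genes of the YAP and TAZ pathway 4 rose (16.7%) and 6 fell (25%). Its familiar targets Ccn1 (CYR61) and Ccn2 (CTGF) fell, from 10.53 and 10.53 to 8.23 and 8.89 (-1.97 ± 0.20, adjusted p = 0.000282) and from 5.73 and 5.98 to 4.54 and 4.29 (-1.44 ± 0.26), whereas Tead4, a factor that binds YAP, rose by 1.53 ± 0.22. The 6 falls were 2 without LE replicate 1 or control replicate 1 and 3 without LE replicate 2, and the 4 rises were 2 without LE replicate 1 or control replicate 1.

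Calls among cell contact genes were mostly rises. Of 29 junction genes 8 rose (27.6%) and 1 fell (3.45%), beside 9.25% and 5.37% of all genes. Gjb2, connexin 26, was at 11.32 and 11.08 against 7.88 and 6.99 (3.77 ± 0.27, adjusted p = 4.9e-05) and the desmosomal cadherin Dsc2 at 8.96 and 8.86 against 5.39 and 5.22 (3.61 ± 0.41, adjusted p = 0.000543). Nectin4 rose by 1.49 ± 0.17. Cldn1, the tight junction claudin, was lower by 0.75 ± 0.12, and desmoplakin (Dsp, 0.00) and E-cadherin's partner Jup (0.30) were uncalled. The rises numbered 5 without LE replicate 1. In tail skin, where scales and interscales differ in their keratins, Krt2 was at 8.88 and 4.76 against 10.02 and 10.32 and Krt36 at 7.82 and 4.43 against 9.43 and 8.74. The LE arrays lay far apart in both genes, and neither was called (adjusted p = 0.188 and 0.0721).

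The same 2 LE arrays were then set against the proliferative hub, the next ring of epidermis. limma called 227 genes higher in the LE (1.33%) and 239 lower (1.4%). Mmp9 was at 5.02 and 5.82 in the hub, 4.57 ± 0.93 under the LE (adjusted p = 0.0351). Tmigd1, an adhesion protein, was at 6.49 and 6.59 against 3.70 and 3.76 in the hub (2.80 ± 0.23, adjusted p = 0.0013), and Basp1 at 5.52 and 5.57 in the hub (2.89 ± 0.17, adjusted p = 0.000206). Tubb3, Inhba and Mmp13 made up the 6 largest. Downward, Fcgbp (-3.10 ± 0.30), Zbtb16 (-2.26 ± 0.21), Cyp4b1 (-2.21 ± 0.25), Col4a6 (-2.14 ± 0.38) and Trim2 (-2.12 ± 0.30) were lower in the LE than in the hub. Krt84, a hair-type keratin of tail scales, was lower by 3.73 ± 0.76 (adjusted p = 0.0358), with LE arrays at 6.86 and 4.27. Krt6b, by contrast, was at 10.75 and 10.77 in the hub, and its difference from the LE, 0.35 ± 0.58, was not called (adjusted p = 0.856, 95% interval -0.95 to 1.65 by limma). The counts fell to 71 genes in all without LE replicate 1, 156 without LE replicate 2, 128 without hub replicate 1, 88 without hub replicate 2 and 302 without either control array.

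LE and hub were measured against the same control arrays, so their differences from control are given side by side without a test of likeness. Of the 1581 genes higher in the LE, the hub mean lay between control and LE in 1494 and past the LE in 26, and 214 were also called above the hub. For the 918 lower genes these numbers were 832, 25 and 223. The median difference from control was 0.75 for the LE and 0.37 for the hub in the first set, and -0.80 and -0.31 in the second. Both sets were chosen by their LE minus control difference on these arrays, so a smaller hub difference follows in part from that choice. By list, the actin and myosin genes had medians of 0.46 and 0.09, the metalloproteinases of 0.16 and 0.00, and the respiratory chain genes of 0.23 and 0.23. In the actin list 14 of 44 genes were called higher in LE than hub, and in the respiratory chain list 0 of 53. Over all genes 1.33% were so called, and 0 of 53 lies near that share.

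The comparison at D7 was set beside that at D4, which shares no array with it. At D4 limma called 1419 genes higher in the LE than in control (8.3%) and 997 lower (5.83%). Of the 1581 genes higher at D7, 891 were higher at D4 too, 56.4% of the D7 list and 62.8% of the D4 list. Of the 918 lower, 573 were lower on both days, 62.4% and 57.5%. On sign alone 1530 of the 1581 lay above control at D4, where 56.5% of all genes did. A test of whether the difference from control changed between the days called 5 genes (0.0292%). At an unadjusted p under 0.05 there were 681 genes with a more positive and 656 with a more negative difference at D7. Gjb6, connexin 30, stood 3.88 over control at D4 and 1.17 at D7. At D7 it was at 5.74 and 5.27 against 4.24 and 4.43 (1.17 ± 0.16, adjusted p = 0.0014), and the change between days was -2.71 ± 0.23 (adjusted p = 0.00318). Its neighbour in function, Gjb2, had differences of 2.91 and 3.77. Insig1, which holds back sterol synthesis, went from 2.05 to 0.47 (change -1.58 ± 0.19, adjusted p = 0.0346). The urate oxidase gene Uox (4.58 to 0.45) and Stfa2l1, a stefin (3.40 to 0.29), had lost most of their D4 difference, and Ctsf, a cathepsin, had moved from -1.75 to -0.14. Insig1 and Ctsf were each not called in 9 of 20 alternative fits (highest adjusted p = 0.213 and 0.206), while Gjb6, Uox and Stfa2l1 were called in all that tested them. Krt6b had the widest shift, 5.90 ± 0.82 above its D4 difference of 2.11, and was not called (adjusted p = 0.0832). Its control arrays at D4 were at 11.18 and 8.69, above the D4 medians of 5.401 to 5.469, and those at D7 at 3.04 and 3.17, under the D7 medians.

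**Figure D5:**
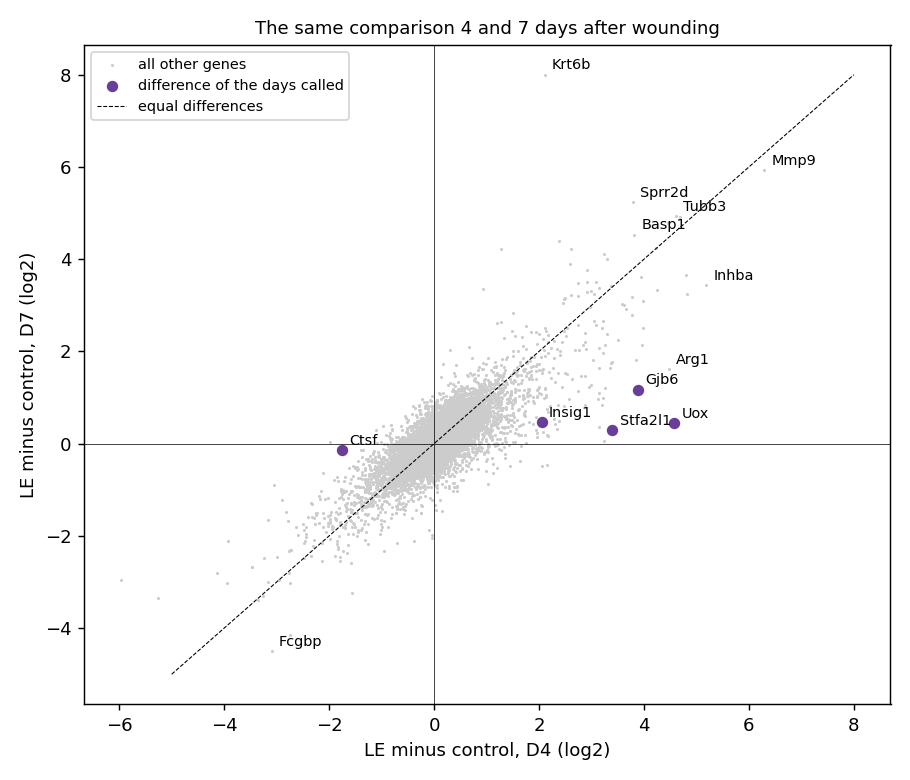
Log2 difference, LE minus control, at D7 (y axis) against D4 (x axis), with each gene as a point, the 5 genes whose differences changed between the days in purple and a dashed line where both days are equal. Uox and Stfa2l1 stood at 4.58 and 3.40 at D4 and at 0.45 and 0.29 at D7.

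Among the lists that follow, Insig1 of cholesterol synthesis was the 1 gene called in the test between the days. The ribosome biogenesis median was 0.10 at D4 and 0.62 at D7, and all 38 members had a larger difference at D7, as had 50.4% of all genes. Heatr1 went from -0.19 to 0.91 and Nob1 from 0.03 to 0.90. For G2/M and mitosis the medians were 0.89 and 0.11, and 0 of 32 members had a larger difference at D7. The control arrays stood apart on this list on both days: the mean level was 7.73 and 6.94 in control skin at D7, with the LE between them at 7.21 and 7.54, and 7.05 and 8.03 in control skin at D4, with the LE above both at 8.34 and 8.40. Cholesterol synthesis went from 0.98 to 0.65, with 4 of 19 members larger at D7, and DNA replication from 0.42 to 0.46. These counts stayed within 1 gene for the ribosome and mitosis lists under median-centring, quantile normalization and the mean of all probe sets. Members of a list are not independent, and the shift of a list was not tested. Arg1, arginase, was 4.48 above control at D4 and 1.62 at D7 (5.56 and 5.04 against 4.09 and 3.27), a change that was not called.

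Among 37 genes that the study names for the LE, 29 rose at D7 and 1, Timp3, fell, with a median of 1.27. These were chosen by the study with such arrays in hand, so they are no independent evidence. The study drew most of them from D4 LE cells sorted for α5-integrin, the product of Itga5, and compared with the proliferative hub. The counts here are of LE cells without that sort, against control skin at D7. A gene not called here therefore does not bear on the comparison of the study. Not called were Efnb1 (0.43), C5ar1 (0.12), Pcdhb19 (0.77), Itga5 (0.92), Itga6 (0.22), Lamb3 (0.28) and Cdsn (0.06). The hub median of the list was 0.18, and 22 of the 37 were called above the hub.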

How the data were processed

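Basal cells of 6 groups (LE, proliferative hub and control skin at D4 and D7) were measured on 12 arrays, 2 per group. The values are log2 intensities per probe set that the authors deposited after robust multi-array averaging, the version of which neither the labels nor the methods give. Whether both days were normalized together is not given, and their array medians differ. No column of values was left unused. Of 45141 probe sets, 28898 were annotated to a single gene, and for each of 17097 genes the one with the highest mean over the 12 arrays was kept. limma 3.58.1 in R 4.3.3 fitted all 12 arrays by group, which leaves 6 residual degrees of freedom. A gene was called at a Benjamini-Hochberg adjusted p under 0.05. Arrays report no read depth, and their number limits the precision. The genes named were the 15 largest called rises and falls, up to 4 called members per list and direction or the most abundant where none was called, the genes the study names for the LE, the antigens of the sort and markers, and up to 6 of the largest in each direction between the days and against the hub. Others, among them uncalled members of the lists, were chosen after their values were seen. The comparison, the lists and the motifs were chosen with earlier results of these data known. Promoter windows were RefSeq's (GRCm38.p6), 250 bases before to 50 after the start, for 13514 genes. Alternatives covered scaling, probe sets, filters, the samples and prior of the fit, a replicate block and each array left out.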

Additional observations from a re-analysis of the deposited data

Results flagged for a closer look

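Of all genes tested for a change of the LE response between the days, 5 were picked out by the test of the difference itself, limma's contrast of LE minus control at D7 with LE minus control at D4. Uox was at 3.97 and 4.42 in the LE against 3.70 and 3.80 in control skin at D7 and at 10.72 and 10.13 against 6.09 and 5.60 at D4, a change of -4.13 ± 0.37 (adjusted p = 0.004). Stfa2l1 was at 3.61 and 3.33 against 3.14 and 3.23 at D7 and at 7.92 and 7.64 against 4.24 and 4.53 at D4 (-3.11 ± 0.22, adjusted p = 0.00151). For Gjb6 the change was -2.71 ± 0.23 (adjusted p = 0.00318) and for Insig1 -1.58 ± 0.19 (adjusted p = 0.0346). Ctsf went the other way, at 6.19 and 6.16 against 6.19 and 6.45 at D7 and at 5.87 and 5.92 against 7.53 and 7.76 at D4 (1.60 ± 0.17, adjusted p = 0.0154). The calls of Insig1 and Ctsf were the less stable. Ctsf was not called with the mean of its probe sets (adjusted p = 0.206), with the replicate number as a block (adjusted p = 0.0722), from the 8 LE and control arrays (adjusted p = 0.0985), or without LE D4 replicate 1, either LE array or either hub array of D7, or control D7 replicate 1. Insig1 was not called with array weights (adjusted p = 0.0609), from the 8 LE and control arrays (adjusted p = 0.0878), or without LE D4 replicate 1 or any 1 of the 6 arrays of D7.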

How the results depend on the processing

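With 2 arrays per group the counts rest on few arrays. The count of 2499 genes between LE and control at D7 ranged from 1016 to 2650 when 1 array was left out, and of the 2499 calls 961 were kept without LE replicate 1. Requiring at least 2-fold as well gave 727, the fold rule of the methods 571 and 2-fold in all 4 array pairs 492. Quantile normalization moved the split to 1342 higher and 1006 lower, and median-centring to 1760 and 841. The 5 genes between the days were 8 after quantile normalization, 3 from the 8 LE and control arrays, 15 with a trended and robust prior and 3 to 49 with 1 array left out, 49 without LE D4 replicate 2 and 15 without control D4 replicate 2. LE against hub gave 725 genes instead of 466 from the D7 arrays alone and 71 to 526 with 1 array left out. No called gene shared with the fit as reported changed sign. With the replicate number as a block, 2721, 5 and 691 genes were called, and of the 5 between the days 4 were shared with the fit without it, all 5 had a more negative difference at D7 and Ctsf was not among them. The labels do not pair arrays by number, and the deviations of same-numbered arrays correlated with 0.002 to 0.067 at D7 and 0.170 to 0.245 at D4. The test between the days could not be run on 4 arrays. Other probe sets read by themselves had the opposite sign for Acta2 (-0.13), Adamts9 (0.01), Cald1 (-0.01), Jund (0.26), Lama3 (-0.27), Ltbp1 (-0.35), Myo5b (-0.08), Nav2 (-0.16 and -0.16), Tpm1 (-1.41) and Tpm2 (-0.79), and the mean of its probe sets turned Tpm1 (-0.14). The causes were not tested. Of 398 genes checked, 227 were called and 147 of these stayed called under every alternative fit.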
